A study of Homo sapiens with 4 samples.

Results

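Smooth muscle contractile and intermediate filament genes were measured in cultures that received either a negative control RNA or a mimic of miR-335. GIST-T1 is a human line established from a gastrointestinal stromal tumor (GIST). The 10 genes were picked by name, namely ACTA2, TAGLN, CNN1, MYH11, DES, CALD1, TPM1, TPM2, VIM and NES. They are 10 of the 36337 gene names on the array and are covered by 16 of its 50599 probes. Both groups hold this line, electroporated with 100 pmol of small RNA per the study's methods and labels, with RNA taken after 48 h, and each group has 2 arrays. The mimic is a synthetic copy of the mature microRNA, and the control was a commercial negative control mimic. Titles and characteristics of both mimic samples name miR-335, whereas 1 line of their descriptions names a miR-34a mimic, so the groups are used here as the titles give them. No label says whether the 2 arrays of a group came from separate cultures, and the p-values then measure only the spread between these arrays, which may be technical. The comparison asked how the named genes differed between mimic-transfected and control cells.

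Smooth muscle cells contract through filaments of smooth muscle actin sliding on smooth muscle myosin, with tropomyosin, caldesmon and calponin lying along the actin filament. Serum response factor (SRF) binds CArG boxes in many of these genes and, with its partners of the myocardin family, switches them on, and with other partners it also drives early response genes such as EGR1. Desmin, vimentin and nestin build intermediate filaments, which carry mechanical load in muscle and mesenchymal cells. GISTs share features with interstitial cells of Cajal, the pacemaker cells of the gut wall, and express smooth muscle proteins to a varying degree.

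The RNA that was added and the array probes behind the main results are shown first, because a probe reads only the stretch of transcript that it matches. The mature miR-335-5p in RefSeq (GRCh38.p14, chr7:130496126-130496148, plus strand, 23 bases) is printed with its seed, bases 2 to 8, in capitals. The labels do not name the arm of the hairpin that the mimic copies.
hsa-miR-335-5p: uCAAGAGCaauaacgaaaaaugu
The match to this seed in a transcript, GCTCTTG, was in 0 of the 16 member probes, read along the probe strand, and in 221 of all 50599 probes (0.437%). A probe of 60 bases covers little of a transcript, so these counts say only that the letters are not in those windows.

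The probe for smooth muscle actin, the TAGLN probe whose arrays differed most, and both TPM2 probes are printed 5′ to 3′ in lower case.
ACTA2 (A_23_P150053): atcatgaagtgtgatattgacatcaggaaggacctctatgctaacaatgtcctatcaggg
TAGLN (A_23_P87013): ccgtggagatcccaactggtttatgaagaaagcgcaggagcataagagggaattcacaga
TPM2 (A_23_P216501): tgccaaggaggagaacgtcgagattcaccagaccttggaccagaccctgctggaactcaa
TPM2 (A_33_P3270599): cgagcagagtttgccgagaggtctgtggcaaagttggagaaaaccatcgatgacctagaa
A pair of TPM1 probes overlaps, and the 26 bases that they share are in capitals.
TPM1 (A_24_P44462): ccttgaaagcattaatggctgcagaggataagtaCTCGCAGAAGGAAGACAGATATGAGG
TPM1 (A_33_P3335966): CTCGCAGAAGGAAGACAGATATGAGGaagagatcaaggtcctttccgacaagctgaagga
All 16 probes carried an accession that RefSeq pairs with the same gene symbol, and 0 other probes on the array had the same bases as a member probe. Whether a probe also binds transcripts of a related gene, such as another actin or tropomyosin, was not analysed here.

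Of the 16 member probes, 13 were tested, and they stand for 8 of the 10 genes. A probe was tested when both arrays of 1 group or the other showed it well above background. Values below are log2 signals relative to the 75th percentile of the array, and a change is the mimic mean minus the control mean on that log2 scale, with the standard error (SE) from limma. Probes well above background numbered 20386 to 21214 per array (40.3% to 41.9%), the arrays lay on 1 slide with 1 recorded scan, and replicate arrays differed by a median of 0.064 with the mimic and 0.063 in the control, in absolute value over the tested probes. Of the tested member probes, 1 was lower and 1 was higher with the mimic at an adjusted p of 0.05 in limma, and 6 of the 13 had an unadjusted p below 0.05. Over all 20328 tested probes, 1.15% were called lower and 1.47% were called higher, and 25.3% had an unadjusted p below 0.05. No member probe changed by more than 1.5-fold (0 lower and 0 higher), a size reached downward by 1.47% and upward by 2.43% of all tested probes. The mimic arrays lay below both control arrays for 8 of the 13 member probes and above them for the other 5, whereas such separation occurred downward in 32.5% and upward in 27.1% of all tested probes. Probes of 1 gene are not separate observations.

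**Figure D1:**
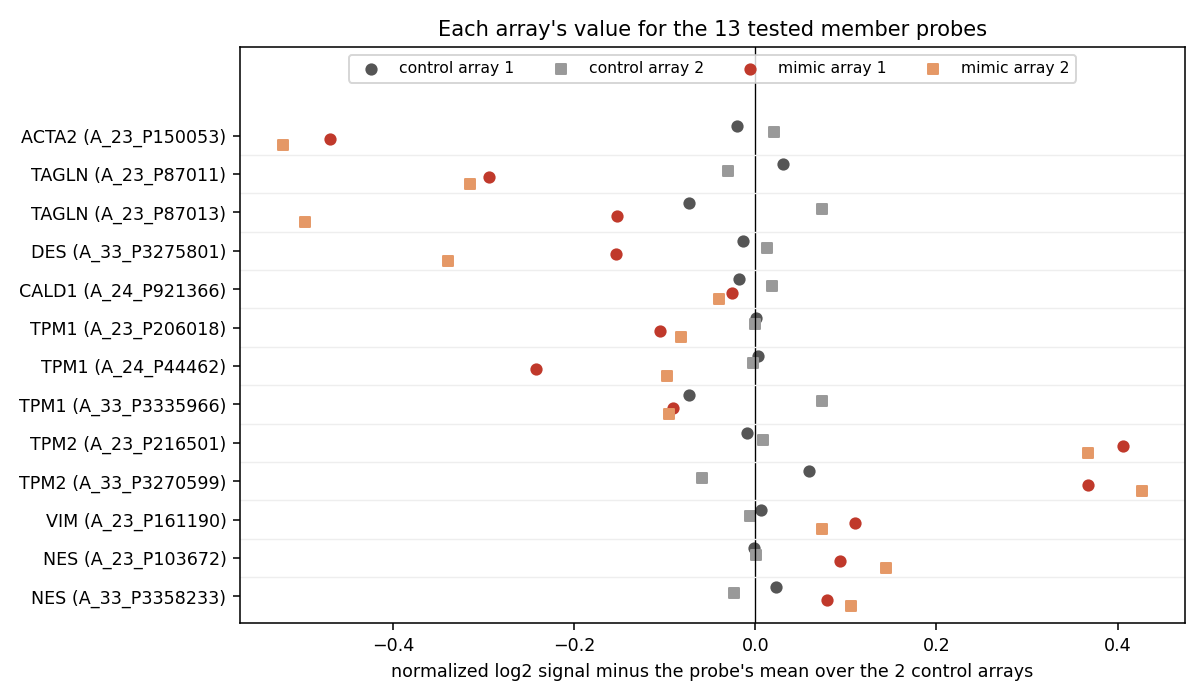
Normalized log2 signal of each array minus the mean of the 2 control arrays (x axis) for the 13 tested member probes (y axis), with circles for the first and squares for the second array of each group. Both mimic arrays lie below the controls for ACTA2 and above the controls for both TPM2 probes. Before the control mean is subtracted, the ACTA2 values are 1.64 and 1.59 against 2.09 and 2.13. The mimic points of VIM and NES, right of 0 here, turn to the left under spike-in scaling.

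ACTA2, which encodes smooth muscle alpha-actin, the main actin of contractile smooth muscle, fell with the mimic. Its only probe (A_23_P150053, hg19 chromosome 10, 90697899 to 90697958, minus strand) was at 2.09 and 2.13 on the control arrays and at 1.64 and 1.59 on the mimic arrays. The mimic arrays were both low, and the groups lay far apart relative to the spread within them. ACTA2 fell by 0.50 ± 0.043 (SE, n = 2 arrays a group) on the log2 scale, 1.41-fold, with a 95% interval from -0.62 to -0.37 and a limma adjusted p of 0.0392. Changes as low as this one or lower were found in 2.27% of all tested probes. The processed signal before scaling was 762 and 796 units in the controls and 592 and 551 with the mimic. In a bulk sample, fewer cells that express a gene and less RNA per cell cannot be told apart. Without any single array the change of ACTA2 lay between -0.52 and -0.47, but its call was lost in each of these fits. They leave a lone array in 1 group, and hardly any probe on the array was called in them. The probe of ACTG2, the gamma-actin of enteric smooth muscle, changed by -0.013 ± 0.085 (SE, limma adjusted p 0.937), and those of ACTA1 and ACTC1, the skeletal and cardiac actins, were not well above background on any array.

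TAGLN encodes transgelin (SM22-alpha), an actin-binding protein of smooth muscle and fibroblasts. Probe A_23_P87011 (hg19 chromosome 11, 117075155 to 117075214, plus strand) was at 0.37 and 0.31 in the controls and at 0.045 and 0.024 with the mimic. Its mimic arrays were below both controls, with a change of -0.30 ± 0.043 (SE) and a limma adjusted p of 0.0684, which did not pass the threshold. The other probe, A_23_P87013 (117074574 to 117074963, a span longer than the probe), gave -0.081 and 0.066 in the controls and -0.16 and -0.50 with the mimic. Here the first mimic array lay close to a control array and the second was far below, so a change of similar size, -0.32, had an SE of 0.14 and a limma adjusted p of 0.27. Without the second mimic array the change at this probe was -0.15, and without the first it was -0.50.

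DES encodes desmin, the intermediate filament protein of muscle cells. Its probe (A_33_P3275801, hg19 chromosome 2, 220291400 to 220291459, plus strand) was at 0.70 and 0.72 in the controls and at 0.56 and 0.37 with the mimic. Both mimic arrays were lower, but they differed from each other by more than the controls did, and the change of -0.25 ± 0.078 (SE) had a limma adjusted p of 0.177. Leaving out 1 array at a time moved it between -0.34 (without mimic replicate 1) and -0.15 (without mimic replicate 2).

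TPM2 encodes beta-tropomyosin, which winds along actin filaments in smooth and striated muscle, and it went the opposite way to ACTA2. Probe A_23_P216501 (hg19 chromosome 9, 35682088 to 35682147, minus strand) was at 1.78 and 1.80 in the controls and at 2.20 and 2.16 with the mimic. The mimic arrays were both high, and TPM2 rose at this probe by 0.39 ± 0.039 (SE), 1.31-fold, with a 95% interval from 0.27 to 0.50 and a limma adjusted p of 0.0451. Rises as large or larger were found in 5.01% of all tested probes. Probe A_33_P3270599, further upstream in the gene (35684244 to 35684303), was at 0.81 and 0.69 in the controls and at 1.12 and 1.18 with the mimic. Its change of 0.40 ± 0.061 (SE) was of the same size, but its controls were further apart and its limma adjusted p of 0.0740 missed the threshold. The difference between the probes moved by only -0.010 from control to mimic, and its values in the groups overlapped. Without any single array the change at A_23_P216501 lay between 0.37 and 0.41. As for ACTA2, the call was lost in each of these fits, in which hardly any probe was called. The array files list partly different TPM2 transcripts for the 2 probes, and single isoforms were not analysed here.

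TPM1 encodes alpha-tropomyosin and has 3 probes on the array, and none of them passed the threshold. A_23_P206018 (hg19 chromosome 15, 63363361 to 63363420, plus strand) read 1.88 on both control arrays and 1.77 and 1.80 with the mimic, a change of -0.094 ± 0.037 (SE, limma adjusted p 0.233). A_24_P44462 (63353441 to 63354441, which spans an exon junction) read 1.13 on both controls and 0.89 and 1.03 with the mimic, a change of -0.17 ± 0.065 (SE, limma adjusted p 0.222). A_33_P3335966 (63354416 to 63354475) read 1.03 and 1.18 in the controls and 1.02 and 1.01 with the mimic, a change of -0.093 ± 0.065 (SE, limma adjusted p 0.437). The mimic arrays were lowest at each of the 3 probes, but at the last one they lay next to a control array. Leaving out 1 array at a time moved the change at A_24_P44462 between -0.24 (without mimic replicate 2) and -0.098 (without mimic replicate 1), and at A_33_P3335966 between -0.17 (without control replicate 1) and -0.019 (without control replicate 2). The tropomyosin genes outside the 10 were TPM3, with a change of 0.17 ± 0.036 (SE, limma adjusted p 0.112) that became -0.021 under spike-in scaling, and TPM4, with a change of -0.012 (limma adjusted p 0.875).

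CALD1 encodes caldesmon, which binds actin and restrains myosin. Its probe (A_24_P921366, hg19 chromosome 7, 134655197 to 134655256, plus strand) read 6.86 and 6.89 in the controls and 6.85 and 6.84 with the mimic. The arrays were close together, and the change of -0.033 ± 0.038 (SE, limma adjusted p 0.625) had a 95% interval from -0.14 to 0.078.

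VIM and NES encode vimentin, the intermediate filament protein of mesenchymal cells, and nestin, an intermediate filament protein of progenitor cells. The VIM probe (A_23_P161190, hg19 chromosome 10, 17278347 to 17279256, plus strand) was at 5.46 and 5.44 in the controls and at 5.56 and 5.52 with the mimic. Its mimic arrays were slightly higher, by 0.092 ± 0.038 (SE, limma adjusted p 0.251), and under spike-in scaling the difference was -0.094. The NES probe A_23_P103672 (hg19 chromosome 1, 156638841 to 156638900, minus strand) read 3.01 on both controls and 3.11 and 3.16 with the mimic, a change of 0.12 ± 0.040 (SE, limma adjusted p 0.192) that became -0.067 under spike-in scaling. The NES probe A_33_P3358233 (156639422 to 156639481) read 1.33 and 1.28 in the controls and 1.39 and 1.41 with the mimic, a change of 0.092 ± 0.041 (SE, limma adjusted p 0.27) that became -0.094 under spike-in scaling. Neither gene passed the threshold in either direction, and their 95% intervals reached at most 0.24.

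CNN1, encoding calponin, and MYH11, encoding smooth muscle myosin heavy chain, are markers of fully differentiated smooth muscle. The CNN1 probe gave processed signals of 7.65 and 15.1 units in the controls and 22.0 on both mimic arrays, and it was not well above background on any array. The MYH11 probes gave 5.29 to 11.1 units (A_23_P206920) and 4.81 to 5.78 units (A_24_P70183) over all 4 arrays, also not well above background. No fold is given for these 2 genes, and their share in any difference was not measurable here.

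**Figure D2:**
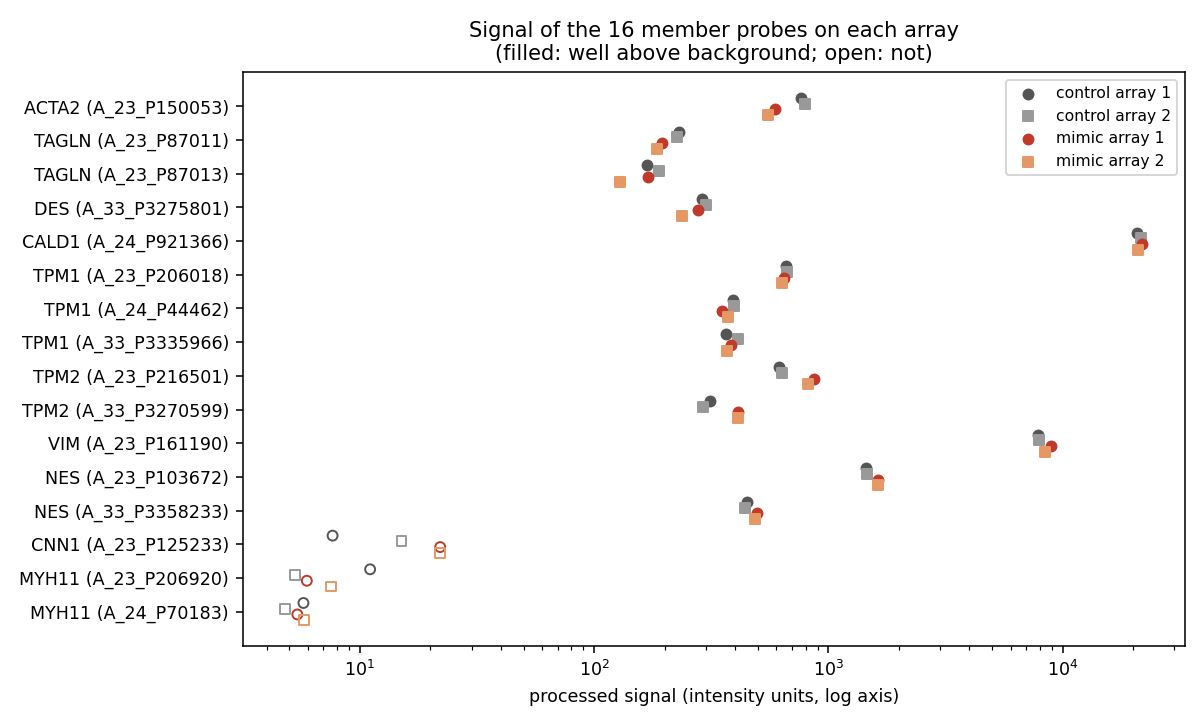
Processed signal before scaling (x axis, log axis, intensity units) of the 16 member probes (y axis) on each of the 4 arrays, filled where the probe was well above background and open where it was not. The CNN1 and MYH11 points are open on all 4 arrays, and distances between probes carry no meaning because each probe binds with its own strength.

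Of the scalings tried, the one to spike-in RNA moved the member values most. Over 7 external spike-in probes (of 10 on the array, for RNA added at labeling), changes relative to the 75th percentile had a median of 0.18 and ran from 0.12 to 0.23. With these spike-ins as the scaling point, the median over all tested probes was -0.20, and 7 of the 13 member probes were then called lower and 1 higher. With that scaling 44.2% of all tested probes were called lower and 2.54% higher, so the member calls are read as no result about the members. ACTA2 stood at -0.68 (limma adjusted p 0.0214), TAGLN at -0.49 for A_23_P87011 (limma adjusted p 0.0214) and DES at -0.43 (limma adjusted p 0.0293) under this scaling. CALD1 stood at -0.22 (limma adjusted p 0.0263), close to the shift of all probes. TPM2 was still higher at A_23_P216501, by 0.20 (limma adjusted p 0.0310). This scaling moves all probes of an array by the same amount, so every change moved alike. CALD1 went from -0.033 to -0.22 and TPM2 at A_23_P216501 from 0.39 to 0.20. The amounts of spike-in RNA added were not used here, and the cause of the shift was not tested. ACTA2 was lower and TPM2 higher under each scaling run, with quantile normalization and the median of detected probes close to the main values.

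**Figure D3:**
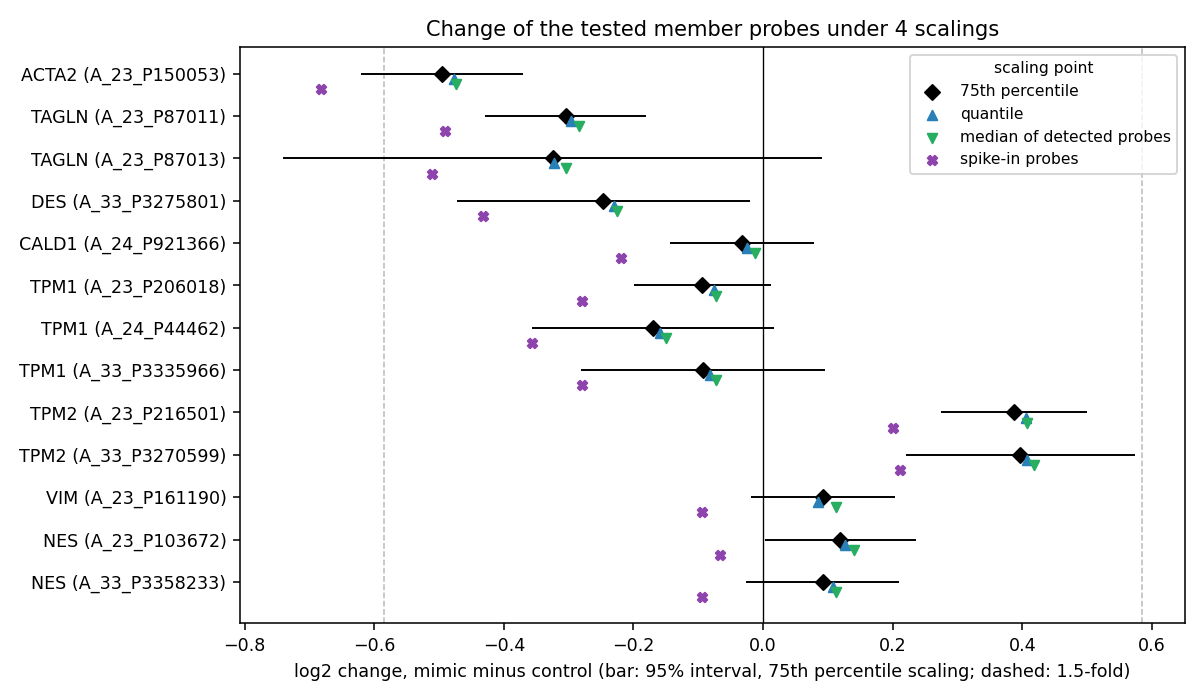
Log2 change (x axis, mimic minus control) of the 13 tested member probes (y axis) under 4 scalings, where diamonds and bars are the estimate and 95% interval relative to the 75th percentile and dashed lines mark 1.5-fold. ACTA2 lies left of 0 and both TPM2 probes right of 0 under all 4 scalings, whereas VIM and both NES probes change side with the spike-ins, and only ACTA2 with the spike-ins passes a dashed line.

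Related genes were then read from 6 lists, with the probe of highest mean signal for each gene and calls from the same limma fit. Taken over genes in this way, 1.34% of all 15454 tested gene names were called lower and 1.42% higher, and their median change was -0.019. An unadjusted p below 0.05 was found for 25.9% of these gene names, and 55.3% had a change below 0. Of the 8 tested members, 1 was called in each direction, and their median was -0.063. Because the lists were read with earlier results of these data known, the counts and medians are descriptions.

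Other smooth muscle contractile genes, 12 of 16 tested, had 0 calls in either direction in limma, 2 with an unadjusted p below 0.05 and a median of -0.017, which was 0.0035 with scaling to detected probes, -0.20 with the spike-ins and -0.059 without control replicate 1. PPP1R12B, a regulatory subunit of myosin phosphatase, changed by 0.29 ± 0.037 (SE, limma adjusted p 0.0597), and PDLIM7, a PDZ and LIM protein that binds tropomyosin, by 0.22 ± 0.041 (SE, limma adjusted p 0.0954). Under spike-in scaling these changes were 0.11 for PPP1R12B and 0.031 for PDLIM7. SMTN, encoding smoothelin, differed between its own controls (3.59 and 4.24) by more than its change of 0.26 (limma adjusted p 0.542). PDLIM3 changed by -0.15 (limma adjusted p 0.363). CSRP1, LMOD1, MYL9 and SYNPO2 had no probe well above background on any array.

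Widely expressed relatives and partners, 17 of 17 tested, also had 0 calls in limma, with 5 at an unadjusted p below 0.05 and a median of -0.034. CNN2, the calponin of non-muscle cells, was at -0.29 ± 0.044 (SE, limma adjusted p 0.0756), and ACTN4, which crosslinks actin, was at -0.16 (limma adjusted p 0.215). TAGLN2, the widely expressed transgelin, was at 0.16 (limma adjusted p 0.162). ACTB, the cytoplasmic beta-actin, changed by -0.012 ± 0.036 (SE, limma adjusted p 0.851).

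Other cytoplasmic intermediate filament genes, 7 of 12 tested, had 0 calls in limma, 2 with an unadjusted p below 0.05 and a median of 0.015 that became -0.17 under spike-in scaling. PLEC, encoding plectin, which links intermediate filaments to other structures, changed by 0.18 (limma adjusted p 0.120). PRPH changed by 0.16 (limma adjusted p 0.676), SYNM, encoding a partner of desmin and vimentin, by -0.15 (limma adjusted p 0.143) and INA by -0.096 (limma adjusted p 0.233). Mesenchymal genes outside the cytoskeleton, 11 of 14 tested, had 0 calls in limma, 1 with an unadjusted p below 0.05 and a median of -0.020 that was 0.0010 with scaling to detected probes. CDH11, a cadherin of mesenchymal cells, was at -0.40 ± 0.055 (SE, limma adjusted p 0.0661). TWIST1, a mesenchymal transcription factor, was at 0.45 with an SE of 0.19 (limma adjusted p 0.250). Its signal was dim, at -2.76 and -3.04 in the controls and -2.24 and -2.65 with the mimic. The change was 0.25 without mimic replicate 1, 0.66 without mimic replicate 2 and 0.20 under normexp. SNAI1 was at -0.17 (limma adjusted p 0.199) and FN1, also dim, at 0.10 (limma adjusted p 0.519).

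The regulators of the smooth muscle programme, 13 of 17 tested, had 0 calls in limma and 7 with an unadjusted p below 0.05. Their median was -0.13 (-0.19 without mimic replicate 2), and 12 of the 13 changes were below 0. SMAD2, a mediator of TGF-beta signaling, was at -0.43 ± 0.12 (SE, limma adjusted p 0.145), and at -0.58 without mimic replicate 1 and -0.28 without mimic replicate 2. ROCK1 and ROCK2, kinases that promote actin assembly, were at -0.30 (limma adjusted p 0.0784) and -0.22 (limma adjusted p 0.104), and GATA6 was at -0.30 (limma adjusted p 0.0798). SRF itself, well above background on 3 arrays, changed by -0.069 with an SE of 0.23 (limma adjusted p 0.871). MYOCD, encoding the cofactor myocardin, was not well above background on any array. Of the 13 changes, 10 were below 0 with scaling to the median of detected probes, and 9 without control replicate 1.

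Immediate target genes of SRF and of the coactivator YAP, 9 of 10 tested, gave 2 calls, both lower, and 8 of the 9 changes were below 0 with a median of -0.37, which was -0.23 under normexp and -0.55 with the spike-ins. EGR1, an early response transcription factor, was at 4.97 and 4.93 in the controls and at 4.27 and 4.32 with the mimic. EGR1 fell by 0.66 ± 0.043 (SE, limma adjusted p 0.0348). Its relative EGR2 was at 0.26 and 0.21 in the controls and at -0.33 and -0.31 with the mimic, and it fell by 0.55 ± 0.042 (SE, limma adjusted p 0.0351). For both genes the mimic arrays were low and close together. FOS was at -0.40 (limma adjusted p 0.117) and CTGF at -0.39 (limma adjusted p 0.141), and neither passed. Without any single array the change of EGR1 lay between -0.68 and -0.64 and that of EGR2 between -0.58 and -0.52. Neither gene kept its call in these fits, in which hardly any probe on the array was called.

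**Figure D4:**
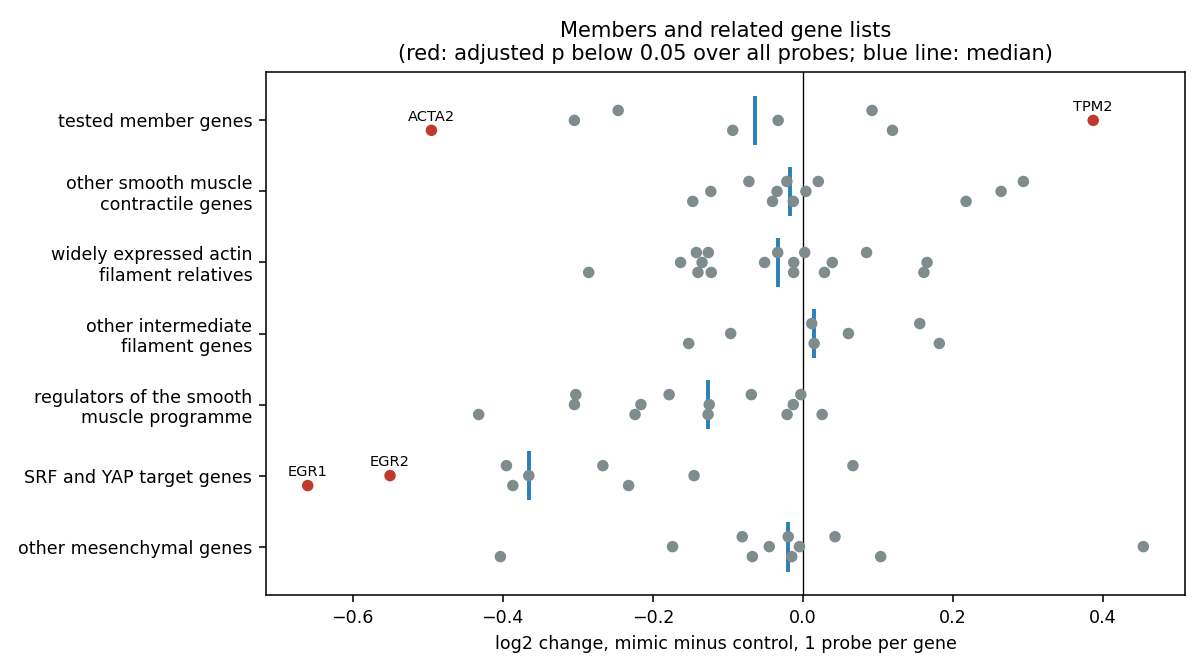
Log2 change (x axis, mimic minus control) of each tested gene, 1 probe per gene, for the members and 6 related lists (y axis), with red for genes past the adjusted threshold over all probes and a blue line at the median of a list. ACTA2 and TPM2 stand at the ends of the members, EGR1 and EGR2 at the lower end of the SRF and YAP targets, whose median is -0.37.

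Because SRF binds CArG boxes, the promoter windows in RefSeq (GRCh38.p14, 250 bases before to 50 after each start) of the members and related genes were searched on both strands for this box, a 10-base element that reads the same way on either strand by its rule. The box was in 454 of all 35116 windows (1.29%) and in 0 of 12 windows of 7 members. DES, MYH11 and TAGLN were not in the table. A looser form with 1 C or G within the A and T core, which excludes exact boxes, was in 6.94% of all windows and in 3 of the 12, those of ACTA2, CALD1 and NES. Exact boxes were in 2 of 12 windows of the SRF and YAP targets (16.7%), 5 of 35 of the other contractile genes (14.3%), 5 of 33 of the actin relatives (15.2%) and 3 of 35 of the regulators (8.57%). The last 3 of these lists had 0 calls. Beside EGR1 and EGR2, the tested genes with an exact box went both ways. Below 0 were CNN2 (-0.29), ROCK2 (-0.22), ACTG1 (-0.13), SRF (-0.069), TGFB1I1 (-0.021), ACTG2 (-0.013) and TPM4 (-0.012). Above 0 were SMTN (0.26), FLNA (0.085), ACTN1 (0.029), FHL1 (0.020) and MYLK (0.0038). A link between the box and the changes was not tested. The windows of the genes called lower are shown, chosen after their values were seen, and they are printed 5′ to 3′ along the gene with the box in capitals. ACTA2 holds the looser form at chr10:88952875-88952904 and chr10:88952825-88952854 (minus strand), 121 and 71 bases before its start.
ACTA2 far: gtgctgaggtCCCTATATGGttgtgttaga
ACTA2 near: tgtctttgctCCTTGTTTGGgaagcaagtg
EGR1 holds exact boxes at chr5:138465364-138465393 and chr5:138465386-138465415 (plus strand), and EGR2 at chr10:62816418-62816447 (minus strand).
EGR1 far: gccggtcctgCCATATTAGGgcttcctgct
EGR1 near: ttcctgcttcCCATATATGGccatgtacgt
EGR2: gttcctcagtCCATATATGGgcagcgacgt
These matches are letters in a window, and binding was not measured.

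Markers of other cells were read on the same arrays. All 6 GIST and Cajal cell markers were well above background on all 4 arrays, with changes from -0.33 (KIT, limma adjusted p 0.0512) to -0.073 (ANO1) and 0 calls in limma. KIT did pass with scaling to detected probes, the filter on all 4 arrays, normexp, an intensity trend and the spike-ins. It did not pass with quantile normalization, the series value table, outlier spots kept, robust eBayes, the replicate block or no filter on dim probes. Nor did it pass in the fits without 1 array. Of all tested probes, 3.73% were called lower with normexp, 8.54% with the trend and 44.2% with the spike-ins. Of the endothelial markers 0 of 5 were tested. EPCAM, 1 of 7 epithelial markers tested, was at -0.54 and -1.59 in the controls and at -2.15 and -1.76 with the mimic (limma adjusted p 0.287). MAP2, the tested gene of 5 glial and neuronal markers, changed by 0.078 (limma adjusted p 0.405). Of 8 skeletal and cardiac muscle markers, MYH3 was tested, and it was well above background on 3 arrays (change 0.41, limma adjusted p 0.389). Their part in the changes of ACTA2 and TPM2 was not tested.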

How the data were processed

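RNA came from GIST-T1 cells given a control RNA or the miR-335 mimic, with 2 single-color arrays a group (G4851 design, 60-base probes). The authors deposited scanner tables from Agilent Feature Extraction 10.7.3.1, per the file headers, in which the processed intensity is the mean signal minus a fitted spatial background, detrended within the array. The mean and median background intensity in the deposited files served the normexp alternative, and the series value table that the authors deposited, of the same intensity, served another. The columns without a sample numbered 0. Depth does not apply to arrays, and their number limits the precision.

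Control spots and flagged outlier spots were left out, replicate spots were averaged, and log2 intensity minus each array's 75th percentile was the value. The scanner's flag for a signal well above background had to be set on 0.5 or more of a probe's spots. Probes that met this on both arrays of either group, with a value on all 4 arrays, entered limma 3.58.1 (lmFit, eBayes; R 4.3.3), with Benjamini-Hochberg adjustment over 20328 probes at 0.05. The step was tested on simulated data. At this design of 2 against 2, the smallest two-sided p of an exact permutation test is 0.333. Member genes were all named, and each related list by the genes past the threshold and up to 4 with the largest change. The members and lists were chosen with earlier results of these data known. Positions are hg19 per the files, and sequences come from the deposited files and RefSeq GRCh38.p14. Alternatives covered scaling, background correction, filters, variance models, a t-test, a replicate block and single arrays left out. Figures were drawn with matplotlib 3.10.9. The blood cell marker list is not reported here.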

Additional observations from a re-analysis of the deposited data

How the results depend on the processing

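The 1 lower and 1 higher member call were unchanged in number with the series value table, scaling to detected probes, quantile normalization, the filter on all 4 arrays, outlier spots kept and robust eBayes, as were the 2 lower and 0 higher calls in related lists. Scaling to spike-in probes gave 7 member calls lower, 48 related calls lower and 1 member probe over 1.5-fold lower (44.2% of all probes were called lower there), and NES reversed to -0.067 and -0.094 and VIM to -0.094, which follows from the shift of all probes. Normexp background correction gave 2 member calls higher, 9 related calls lower and 1 higher, and an intensity trend in eBayes gave 2 member calls lower and 2 higher, with 16 related calls lower and 5 higher (all probes: 3.73% lower and 3.9% higher with normexp, 8.54% and 6.63% with the trend); the cause was not tested. With no filter on dim probes, 0 member calls were made in either direction and 0 related calls were lower, and 0% of all probes were called either way. In that setting 1 member probe was over 1.5-fold higher, CNN1, which is not above background. More and dimmer probes are tested there. The methods' t-test called, at an unadjusted p of 0.05, 3 member probes lower and 4 higher, with 17 related genes lower and 5 higher (11% and 9.27% of all probes), and 0 in each after Benjamini-Hochberg.

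With the replicate number as a block, 0 member calls were made in either direction and 0 related calls were lower, and 0% of all probes were called either way. The replicate numbers follow the order of the arrays within a group, and the titles pair no mimic array with a control array. The difference between replicates in one group had a correlation across probes of 0.035 with that in the other, so no shared replicate effect was seen. That value cannot tell whether the arrays were paired when the cells were grown or transfected. Leaving out each array in turn moved ACTA2 between -0.52 and -0.47 and TPM2 (A_23_P216501) between 0.37 and 0.41. These fits assume that the lone array varies like the other group. ACTA2 and TPM2 (A_23_P216501) each lost their call in 7 of 17 alternatives and kept their direction in all 17. The 7 were the fits with a lone array in a group, the block, the adjusted t-test and no filter on dim probes. The block, the adjusted t-test and no filter each called 0% of all probes in either direction. Fits with a lone array called hardly any probe, and EGR1 and EGR2 lost their calls there too.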
